A study of Mus musculus with 22 samples.

Results

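The Rhox genes are a family of reproductive homeobox genes that lie side by side on the mouse X chromosome. They were chosen by name, as every gene whose symbol in the GENCODE M21 annotation starts with Rhox and a digit, which gave 42 of the 47729 genes in the count tables. The rule uses the symbol alone. The 42 genes span 1092.22 kb of chromosome X (GRCm38, positions 37213804 to 38306028). They comprise 11 genes present once under their own number (Rhox1 and Rhox5 to Rhox13, with Rhox7 as Rhox7a and Rhox7b), 8 copies of Rhox2, 7 of Rhox3, 8 of Rhox4 and 8 pseudogenes.

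RNA of mouse embryonic stem (ES) cells grown in serum and the cytokine LIF was sequenced in 22 libraries, to ask what the Dux gene cluster, whose homeobox protein activates genes of the early embryo, contributes to expression. Lines were edited with CRISPR-Cas9 to have no Dux (Dux-KO) or, as their name is read here, a single Dux unit (Dux n=1). In the treated set, 3 genotypes had 2 libraries each with the DNMT1 degrader GSK-3484862 and 2 with its solvent DMSO, after 3 days: KO22 (a Dux-KO line), N22 (a Dux n=1 line) and WT. Since KO22 and N22 seem to be a single clone each, a difference of genotype and one of clone cannot be told apart in this set. The dose is uncertain, given as 1 uM in one label and 2 uM in another. In the untreated set, there were 4 Dux n=1 clones (17, 22, 31 and 40), 3 Dux-KO clones (15, 22 and 52) and 3 libraries of the line E14.

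Rhox genes encode homeodomain transcription factors that are expressed mainly in the testis, epididymis, ovary, placenta and germ cells. In cells of the early embryo itself the cluster is largely silent, and DNA methylation is known to take part in that silencing. Rhox5, also called Pem, is the founding member, and is the family member best known from ES cells, placenta and the Sertoli cells of the testis. DNMT1 is the enzyme that restores DNA methylation after replication.

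The copies of Rhox2, Rhox3 and Rhox4 are so alike that a short read often fits several of them. A 60-base stretch of the Rhox2 coding sequence (bases 171 to 230 of 573, chromosome X, from the GENCODE M21 transcripts) is shown as an example of how alike the copies are. Capitals mark the bases that differ from Rhox2a.
Rhox2a: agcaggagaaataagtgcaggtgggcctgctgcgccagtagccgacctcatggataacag
Rhox2b: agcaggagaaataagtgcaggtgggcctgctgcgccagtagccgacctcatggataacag
Rhox2c: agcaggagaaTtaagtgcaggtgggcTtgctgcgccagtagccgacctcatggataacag
Rhox2d: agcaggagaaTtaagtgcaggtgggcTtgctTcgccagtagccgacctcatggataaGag
Rhox2e: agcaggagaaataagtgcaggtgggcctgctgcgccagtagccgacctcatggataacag
Rhox2f: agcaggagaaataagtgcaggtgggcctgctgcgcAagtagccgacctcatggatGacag
Rhox2g: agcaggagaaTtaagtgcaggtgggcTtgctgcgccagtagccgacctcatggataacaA
Rhox2h: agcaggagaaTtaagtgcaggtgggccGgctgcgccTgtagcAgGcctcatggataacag
Rhox2b and Rhox2e were identical to Rhox2a in this stretch, and over the whole coding sequence they differed from it at 5 and 2 bases. Rhox2h differed at 32 bases. Pairs of Rhox2 copies shared 93.7% to 99.7% of their aligned coding bases, pairs of Rhox3 copies 98.6% to 100% and pairs of Rhox4 copies 98.2% to 100%. The tables count a fragment only where it maps to 1 place, so the copies have lost the fragments they share, and the level of any single copy is uncertain. Of the 100-base stretches of a gene's transcripts, a median of 57.6% in Rhox2 copies, 36.3% in Rhox3 copies and 23.5% in Rhox4 copies occurred in no other gene, against 100% in the genes present once. Rhox6 and Rhox9 shared 90.6% of their coding bases with each other, but 93.2% and 97.6% of their 100-base stretches were unique.

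Start-site sequences are shown for 4 members that could be tested with GSK-3484862, to set their CG content beside their response, with CG dinucleotides, the sites of DNA methylation, in capitals. Each is the 250 bases before the RefSeq start site, written 5′ to 3′ on the gene's own strand (RefSeq, GRCm38.p6): chrX:37222259-37222508 (minus) for Rhox1, chrX:37244742-37244991 (plus) for Rhox2a, chrX:37754358-37754607 (plus) for Rhox5 and chrX:38066225-38066474 (plus) for Rhox10.
Rhox1: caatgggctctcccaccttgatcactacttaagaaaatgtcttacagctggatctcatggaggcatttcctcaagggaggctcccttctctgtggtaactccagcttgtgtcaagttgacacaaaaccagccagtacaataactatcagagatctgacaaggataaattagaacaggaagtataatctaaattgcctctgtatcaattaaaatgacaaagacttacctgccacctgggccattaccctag
Rhox2a: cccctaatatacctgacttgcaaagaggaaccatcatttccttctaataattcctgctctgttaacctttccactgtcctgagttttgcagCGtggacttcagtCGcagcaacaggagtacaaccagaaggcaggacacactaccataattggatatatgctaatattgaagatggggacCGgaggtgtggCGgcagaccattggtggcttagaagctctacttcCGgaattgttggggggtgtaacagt
Rhox5: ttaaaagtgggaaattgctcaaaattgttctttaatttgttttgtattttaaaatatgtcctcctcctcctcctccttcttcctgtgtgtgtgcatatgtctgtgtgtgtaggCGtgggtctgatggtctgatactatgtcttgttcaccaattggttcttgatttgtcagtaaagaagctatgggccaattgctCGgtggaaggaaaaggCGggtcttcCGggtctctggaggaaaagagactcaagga
Rhox10: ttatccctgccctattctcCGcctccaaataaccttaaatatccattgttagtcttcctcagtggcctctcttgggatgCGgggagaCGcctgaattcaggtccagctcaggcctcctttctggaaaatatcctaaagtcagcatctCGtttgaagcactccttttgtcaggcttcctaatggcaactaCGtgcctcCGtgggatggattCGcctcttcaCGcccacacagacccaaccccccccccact
The Rhox1 sequence held no CG, the Rhox5 sequence 4, the Rhox2a sequence 5 and the Rhox10 sequence 8. The RefSeq start of Rhox5 lies 50234 bases upstream of the start of the gene as counted, so that this window is not next to the counted exons. In windows of 300 bases (250 before and 50 after the start), the 28 members with a RefSeq entry had a median of 7 CG, as had all 32851 promoters in that table. The families differed: 7 Rhox3 copies had 2 to 4 CG, 7 Rhox2 copies 5 to 9 and 7 Rhox4 copies 10 to 12. The letters CACGTG, an E-box that reads the same on both strands, were found in 5 of the 28 windows (17.9%, all of them Rhox4 copies) and in 7.15% of all promoters. The letters TTCCCGC, a motif of E2F factors searched on both strands, were found in 1 of 28 (3.57%) and in 4.60% of all. Neither motif contains the other.

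Library totals ranged from 15803194 to 19427794 counts. Mitochondrial genes took 2.66% to 3.20% of counts in the 6 GSK-3484862 libraries and 1.65% to 2.39% in the 6 DMSO libraries. The annotated Dux gene, Duxf3, had no count in the 4 KO22 libraries, 13, 11, 3 and 0 in N22 (GSK-3484862 first) and 19, 18, 1 and 1 in WT. Untreated, it had 0 to 3 counts in every library but the one labelled Dux-KO clone 22, which had 5, so its counts do not separate the untreated genotypes. All 9 markers of pluripotent cells were found in every group. Of the cells that Rhox genes are known from, the 7 Sertoli cell markers summed to 5.88 to 18.9 CPM (counts scaled to the library total) and the 10 trophoblast markers to 34.2 to 116 CPM over the 22 libraries. Fshr of the first list and Prl3d1 and Tpbpa of the second had no count in any library. The 6 primordial germ cell markers, of which Tfap2c is also in the trophoblast list, summed to 69.4 to 162 CPM, and each was found in every group.

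Over 22 libraries the 42 genes drew 13281 counts on genes present once, 319 on Rhox2 copies, 34 on Rhox4 copies, 1 on a Rhox3 copy and 232 on pseudogenes. No count was recorded for 14 members, among them Rhox8, a gene of Sertoli and granulosa cells, and 11 members reached 10 counts in a library. Members with a count numbered 26 in the GSK-3484862 libraries, 12 in the DMSO libraries and 14 in the untreated libraries. With no counts in the 6 DMSO libraries but at least 1 in the 6 GSK-3484862 libraries were 14 members. All but Rhox11-ps2 were Rhox2 or Rhox4 copies, and Rhox4c, Rhox4d and Rhox4f had 1 count each. Such numbers were not computed over all genes, so they are not read as particular to the cluster. Rhox5 made up most of the signal in every group, from 57.3% ± 5.59 (SD, n = 2) of the summed counts in N22 with DMSO to 80.8% ± 1.12 in WT with DMSO.

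**Figure D1:**
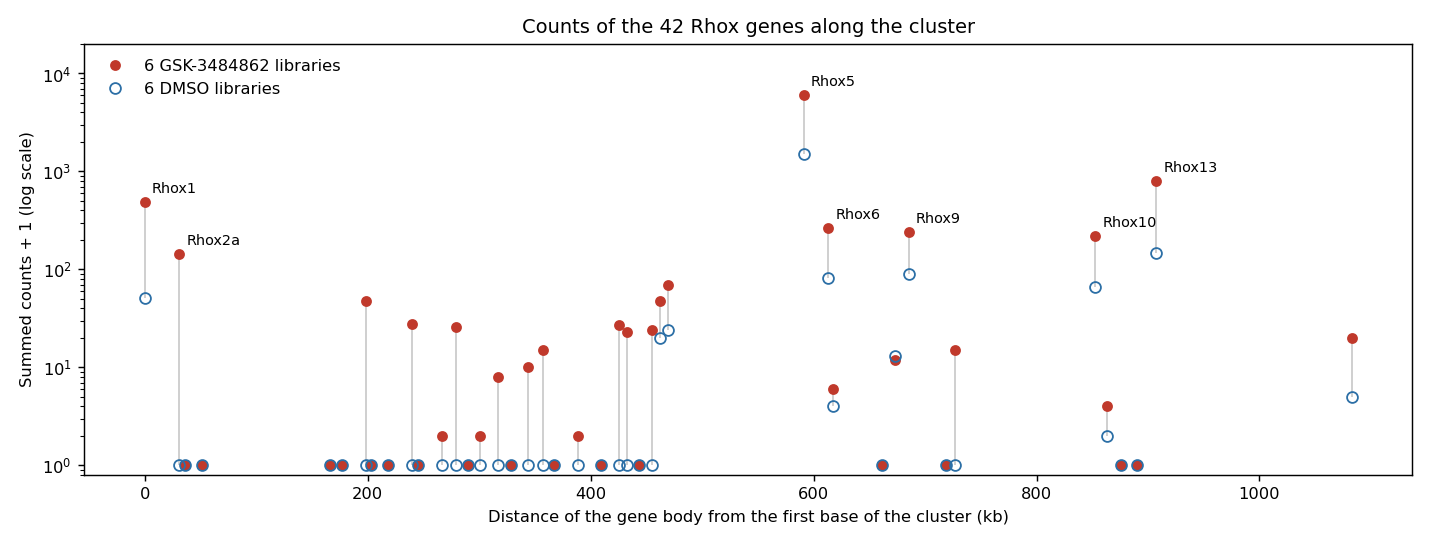
Counts of the 42 Rhox genes along the cluster, summed over the 6 GSK-3484862 libraries (filled) and the 6 DMSO libraries (open), against the distance of each gene from the first base of the cluster in kb. The y axis is the count plus 1 on a log scale, so that points on the bottom line had no count, and the 7 labelled genes had 100 or more counts with GSK-3484862.

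GSK-3484862 raised the summed level of the cluster in all 3 genotypes. The sum was 1608 and 1408 counts in KO22 with GSK-3484862, against 236 and 249 with DMSO. In N22 it was 1159 and 1219 counts with GSK-3484862, against 209 and 210 with DMSO. In WT it was 1576 and 1582 counts with GSK-3484862, against 566 and 517 with DMSO. Every GSK-3484862 library lay above every DMSO library, and the DMSO libraries of KO22 and N22 lay below those of WT. The sum was 80.5 ± 9.33 CPM with GSK-3484862 and 13.0 ± 0.177 CPM with DMSO in KO22, 67.8 ± 1.92 and 11.2 ± 0.235 CPM in N22, and 86.3 ± 0.558 and 28.2 ± 2.18 CPM in WT (SD, n = 2 each). The ratio of pooled counts was 6.18 in KO22 (exact 95% interval 5.61 to 6.82, counting error only), 6.02 in N22 (5.43 to 6.70) and 3.07 in WT (2.86 to 3.29). In RNA of whole cultures, more cells expressing a gene and more RNA per cell cannot be told apart.

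**Figure D2:**
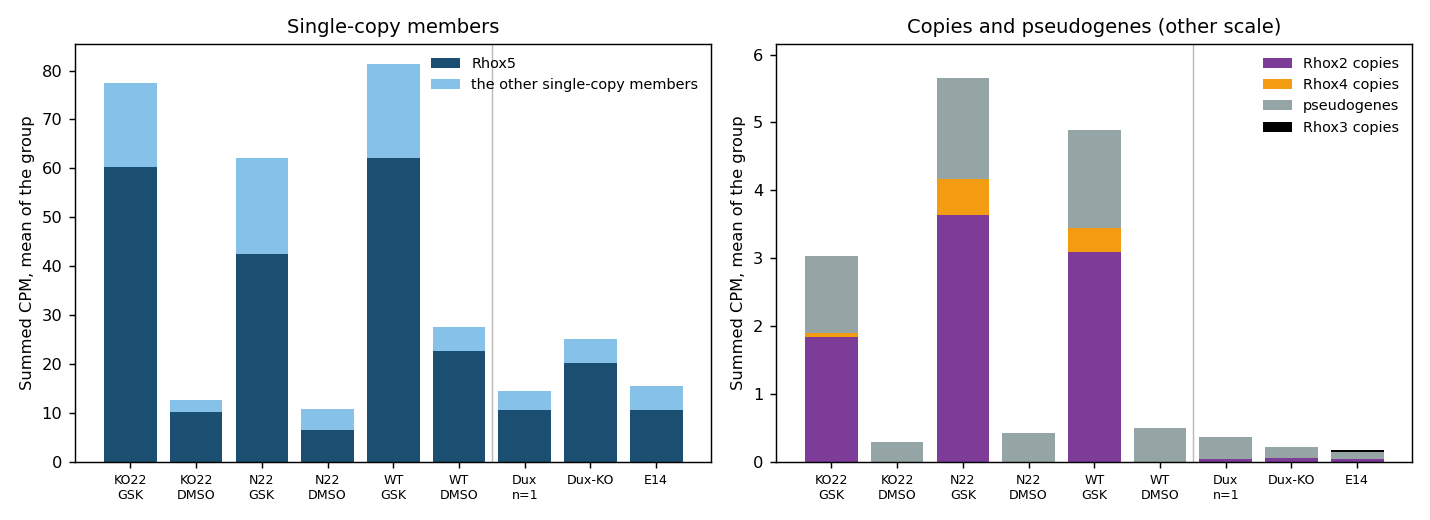
Mean summed CPM of Rhox5 and the other members present once (left) and of the Rhox2, Rhox3 and Rhox4 copies and pseudogenes (right, with a smaller scale) in each group. GSK-3484862 bars stand above the DMSO bars of the same genotype in both panels, and the Rhox2 and Rhox4 parts are at 0 in all 3 DMSO groups.

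Of the 42 members, 9 had enough counts to be tested in the treated set. Rhox2a, Rhox2b and Rhox2-ps reached the low-count filter only through the GSK-3484862 libraries, which bound their calls to the filter, so they are described by their counts. The other 6 (Rhox1, Rhox5, Rhox6, Rhox9, Rhox10 and Rhox13) reached it in DMSO libraries alone, as did 15390 of the 16641 tested genes. At a Benjamini-Hochberg adjusted p below 0.05 in edgeR's quasi-likelihood test over 16641 genes, 6 of these 6 rose in KO22, 6 of 6 in N22 and 6 of 6 in WT. The share of all tested genes that rose was 24.8% in KO22, 26.9% in N22 and 28.7% in WT, and among the 15390 it was 23.4%, 24.7% and 26.5%. The median log2 fold change of the 6 members was 2.55 in KO22, 2.25 in N22 and 1.47 in WT, beside -0.02, -0.03 and -0.04 over the 15390 genes.

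Rhox5 (ENSMUSG00000095180, positions 37804842 to 37808876, plus strand) was the most abundant member per length in every group. It had 1197 and 1062 counts in KO22 with GSK-3484862, against 186 and 193 with DMSO. It had 728 and 764 counts in N22 with GSK-3484862, against 128 and 112 with DMSO. In WT it had 1140 and 1135 counts with GSK-3484862, against 453 and 422 with DMSO. The GSK-3484862 libraries stood clear of the DMSO libraries in each genotype, and even the lowest of them, in N22, exceeded both WT libraries with DMSO. The log2 fold change was 2.56 ± 0.09 (SE) in KO22 (adjusted p = 3.66e-36, edgeR), 2.67 ± 0.10 in N22 (adjusted p = 1.89e-34) and 1.39 ± 0.08 in WT (adjusted p = 4.45e-25). Per length, Rhox5 stood at 79.9 RPKM (CPM per kb of exon) in KO22 with GSK-3484862 and 13.5 with DMSO, 56.4 and 8.55 RPKM in N22, and 82.4 and 30.2 RPKM in WT. The next member per length in the GSK-3484862 libraries, Rhox13, stood at 7.64 RPKM in KO22, 8.83 in N22 and 8.70 in WT.

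The response of Rhox5 was larger in both edited lines than in WT. The difference between responses was 1.17 ± 0.12 log2 units for KO22 minus WT (adjusted p = 2.19e-12, edgeR interaction contrast) and 1.29 ± 0.13 for N22 minus WT (adjusted p = 1.01e-11). Of the 6 members that reached the filter in DMSO libraries alone, Rhox5 alone passed in each of these contrasts. Of all genes, 18.3% and 5.82% were higher in them. Both contrasts share the 4 WT libraries. Rhox1 differed by 0.94 ± 0.56 for KO22 and 0.83 ± 0.56 for N22, and Rhox10 by 1.09 ± 0.61 and 1.05 ± 0.59, none past the threshold (adjusted p 0.170 to 0.400), with standard errors that leave differences as large as that of Rhox5 possible. Rhox13 differed by 0.36 ± 0.38 for KO22 and -0.04 ± 0.36 for N22, and Rhox9 by 0.47 ± 0.61 and -0.09 ± 0.51 (adjusted p 0.518 to 0.973). Rhox2-ps, which is not among these 6, differed by 1.11 ± 1.01 for KO22 and 3.36 ± 1.36 for N22 (adjusted p = 0.443 and 0.105). Rhox6 differed by 1.02 ± 0.56 for KO22 (adjusted p = 0.166) and by -0.36 ± 0.53 for N22 (adjusted p = 0.748).

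**Figure D3:**
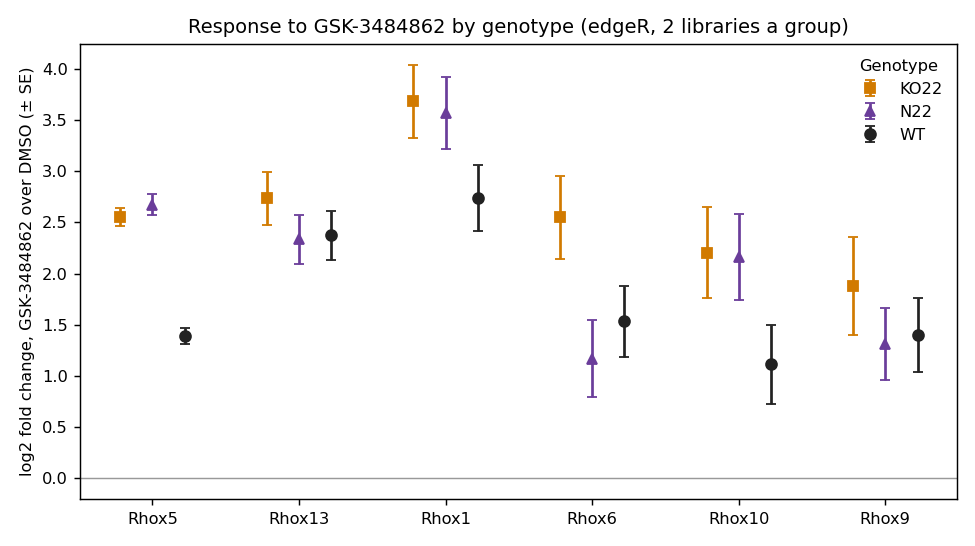
Log2 fold change of GSK-3484862 over DMSO with its standard error (edgeR) for the 6 tested members present once, in KO22 (squares), N22 (triangles) and WT (circles). All 18 points lie above 0. The bars of KO22 and N22 lie clear of that of WT for Rhox5, Rhox1 and Rhox10, as does that of KO22 for Rhox6. The bars are narrowest for Rhox5, the only member that passed as a difference between responses.

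Within a treatment, Rhox5 differed between the genotypes mainly in DMSO. With DMSO, Rhox5 was lower in KO22 than in WT (log2 fold change -1.18 ± 0.10, adjusted p = 8.18e-17, edgeR) and lower in N22 than in WT (-1.82 ± 0.11, adjusted p = 1.34e-22). With GSK-3484862 the KO22 and WT libraries overlapped (log2 fold change -0.01 ± 0.07, adjusted p = 0.939), and N22 was lower than WT (-0.53 ± 0.07, adjusted p = 5.85e-08). These 4 contrasts use the same 12 libraries as the responses above and restate them from the other side.

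Members of the germ line came next. Rhox13 (ENSMUSG00000050197, positions 38121219 to 38129967), known from male and female germ cells, had 134 and 117 counts in KO22 with GSK-3484862, against 19 and 18 with DMSO. In N22 it had 135 and 136 counts with GSK-3484862, against 32 and 23 with DMSO, and in WT 132 and 147 against 35 and 19. The 6 GSK-3484862 libraries were close to each other, and all lay well above the 6 DMSO libraries. This was a log2 fold change of 2.73 ± 0.26 in KO22, 2.33 ± 0.24 in N22 and 2.37 ± 0.24 in WT (adjusted p at most 2.81e-13, edgeR).

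Rhox10 (ENSMUSG00000053909, positions 38066475 to 38071691), known for its part in founding the spermatogonial stem cells of the mouse testis, had 38 and 33 counts in KO22 with GSK-3484862, against 7 and 8 with DMSO. In N22 it had 42 and 37 counts with GSK-3484862, against 6 and 12 with DMSO, and in WT 32 and 37 against 17 and 15. No GSK-3484862 library overlapped the DMSO libraries of its genotype. Its log2 fold change was 2.21 ± 0.44 in KO22 (adjusted p = 2.55e-05, edgeR), 2.16 ± 0.42 in N22 (adjusted p = 1.17e-05) and 1.11 ± 0.39 in WT (adjusted p = 0.0111). The WT call was lost with DESeq2 (adjusted p = 0.0667), without WT DMSO replicate 2 (0.0732) and without WT GSK-3484862 replicate 2 (0.0690).

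Rhox6 and Rhox9 are the pair known as Psx1 and Psx2, first described in the placenta and also expressed in germ cells. Rhox6 (ENSMUSG00000006200, positions 37826910 to 37829857) had 53 and 43 counts in KO22 with GSK-3484862, against 7 and 9 with DMSO. It had 31 and 35 counts in N22 with GSK-3484862, against 13 and 17 with DMSO, and in WT 55 and 46 against 18 and 17. The libraries of the 2 treatments did not overlap in any genotype, and N22 held the lowest GSK-3484862 values. The log2 fold change was 2.55 ± 0.40 in KO22 (adjusted p = 2.18e-07, edgeR), 1.17 ± 0.38 in N22 (adjusted p = 0.00683, and 0.0627 without N22 DMSO replicate 1) and 1.53 ± 0.35 in WT (adjusted p = 0.000126).

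Rhox9 (ENSMUSG00000068048, positions 37899097 to 37901770) had 32 and 17 counts in KO22 with GSK-3484862, against 6 and 7 with DMSO. It had 47 and 50 counts in N22 with GSK-3484862, against 14 and 26 with DMSO, and in WT 46 and 49 against 19 and 17. Here KO22, not N22, held the lowest GSK-3484862 values. On the log2 scale the fold change of Rhox9 was 1.88 ± 0.48 in KO22 (adjusted p = 0.000846, edgeR, and 0.0724 without KO22 GSK-3484862 replicate 1), 1.31 ± 0.35 in N22 (adjusted p = 0.00127, and 0.0520 without N22 DMSO replicate 1) and 1.40 ± 0.36 in WT (adjusted p = 0.000678).

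Rhox1 (ENSMUSG00000071773, positions 37213804 to 37222258, minus strand), the first gene of the cluster and the one whose start-site sequence held no CG, had the highest fitted fold change of the 6 tested members present once in each genotype, although its standard error overlapped that of Rhox13 in WT. It had 96 and 76 counts in KO22 with GSK-3484862, against 5 and 8 with DMSO, and 90 and 74 in N22 against 7 and 7. In WT it had 76 and 78 counts with GSK-3484862, against 12 and 11 with DMSO. The 2 treatments were far apart in every genotype. The log2 fold change was 3.68 ± 0.36 in KO22, 3.57 ± 0.35 in N22 and 2.74 ± 0.32 in WT (adjusted p at most 4.64e-11, edgeR).

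**Figure D4:**
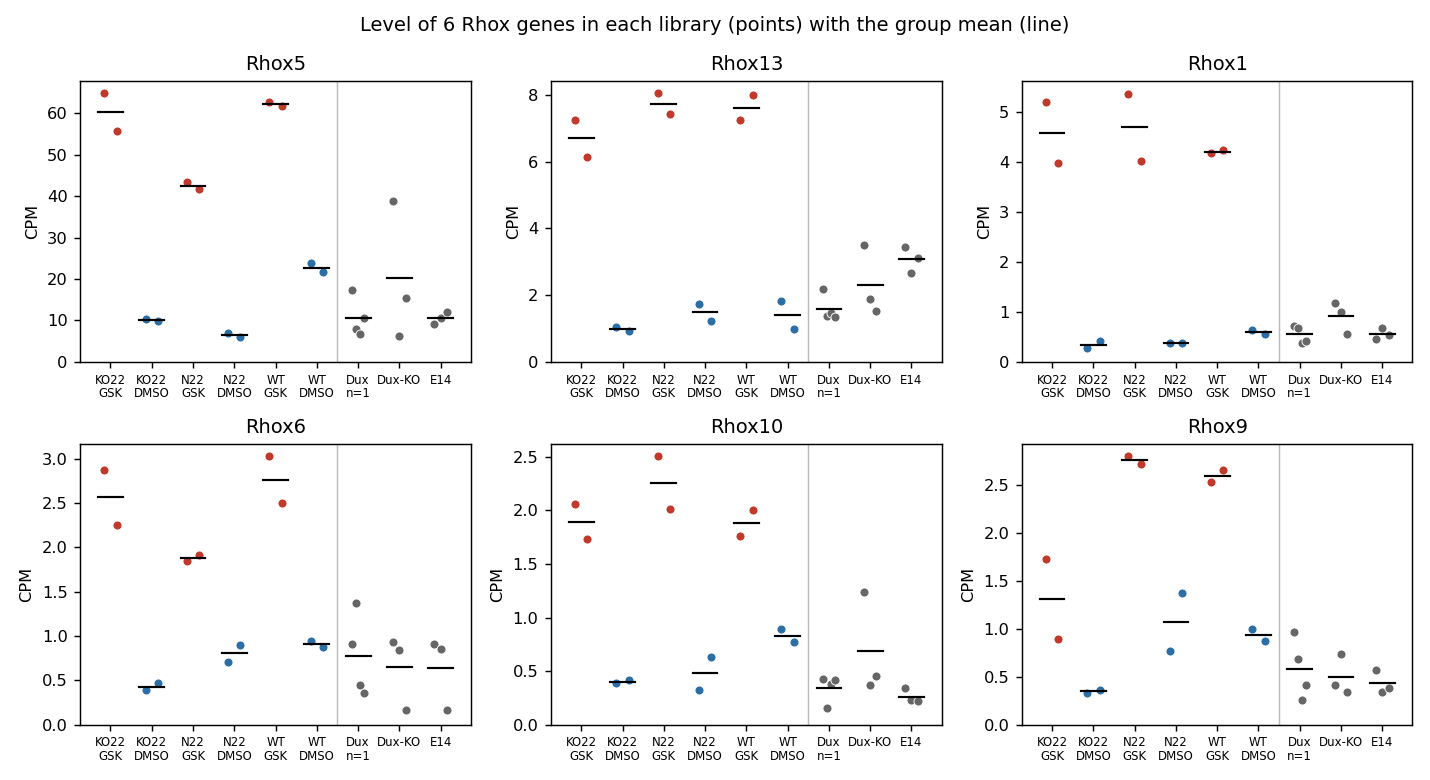
CPM of 6 Rhox genes in each library (points) with the mean of the group (line), for the treated set (left of the grey line) and the untreated set (right). The points of each GSK-3484862 group lie above those of the DMSO group of the same genotype in all 6 panels, and the Dux-KO points of Rhox5 are spread from 6.26 to 38.7 CPM.

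The Rhox2 copies had no count with DMSO and were detected with GSK-3484862. Rhox2a (ENSMUSG00000051827, positions 37244976 to 37249686) had 17 and 14 counts in KO22 with GSK-3484862, 25 and 30 in N22 and 29 and 27 in WT, against no count in any of the 6 DMSO libraries. With a floor of 3 counts over a group of DMSO libraries, Rhox2a was at least 10.3-fold higher in KO22, 19.5-fold in N22 and 19.6-fold in WT. Rhox2b (ENSMUSG00000079638) had 8 and 5 counts in KO22, 8 and 11 in N22 and 4 and 11 in WT with GSK-3484862, again against none with DMSO. Summed over the 8 copies there were 38 and 31 counts in KO22 with GSK-3484862, 48 and 81 in N22 and 57 and 56 in WT, against 0 in all 6 DMSO libraries. The sum was at least 22.9-fold higher in KO22, 45.6-fold in N22 and 39.6-fold in WT. Untreated, the copies together had 0 to 2 counts a library.

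Rhox2a drew the most counts of the copies although its sequence is not the most distinctive. It had 142 counts over the 6 GSK-3484862 libraries with 33.6% of its 100-base stretches unique, against 23 counts for Rhox2h with 89.3% unique. Rhox2e, with 9.09% unique, had 7 counts, all in 1 N22 library with GSK-3484862. Rhox4 copies, of which Rhox4b is known as Ehox from differentiating ES cells, had 0 and 2 counts in KO22 with GSK-3484862, 6 and 13 in N22 and 9 and 4 in WT, against none with DMSO or untreated. That sum was at least 6.72-fold higher in N22 and 4.56-fold in WT, and in KO22 it was too low for a fold. The 7 Rhox3 copies had 1 count in all, in an E14 library, and no count with GSK-3484862. At these levels, with shared fragments lost, low expression of single Rhox3 and Rhox4 copies was not detectable. Exons of Rhox2c and Rhox3c overlap, and fragments of the 2 genes cannot be told apart there.

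**Figure D5:**
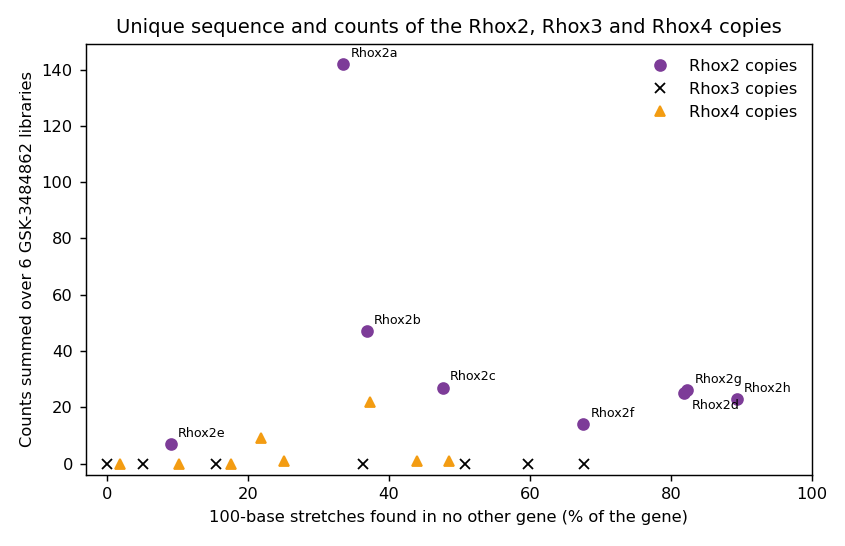
Share of each copy's 100-base stretches that occur in no other gene (x axis, percent) against its counts summed over the 6 GSK-3484862 libraries (y axis), for the Rhox2 (circles), Rhox3 (crosses) and Rhox4 copies (triangles). Rhox2a stands at 142 counts with 33.6% unique sequence, above Rhox2d, Rhox2g and Rhox2h, which have over 80% unique sequence and 23 to 26 counts.

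Pseudogenes had few counts. Together the 8 had 19 and 24 counts in KO22 with GSK-3484862, against 5 and 6 with DMSO, 26 and 26 in N22 against 6 and 10, and 25 and 28 in WT against 7 and 12. Rhox2-ps (ENSMUSG00000081195), unique in sequence and the only pseudogene with enough counts to be tested, had 6 and 16 counts in KO22 with GSK-3484862 and 2 and 4 with DMSO. In N22 it had 10 and 10 counts against 0 and 1, and in WT 8 and 18 against 6 and 10. The treatments overlapped in WT alone. The ratio of its pooled counts was 3.64 in KO22 (exact 95% interval 1.43 to 10.99), 21.2 in N22 (3.40 to 880.0) and 1.71 in WT (0.883 to 3.41). No DMSO library reached the filter for Rhox2-ps, so no call is read from its test.

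The remaining members stayed at or near 0. Rhox7a had 8 counts and Rhox7b 24 over all 22 libraries, and with GSK-3484862 Rhox7b had 1 and 2 counts in KO22, 5 and 2 in N22 and 1 and 0 in WT, against 1 and 0, 2 and 3, and 3 and 3 with DMSO. It was the only member with 10 or more counts in all whose WT counts were lower with GSK-3484862, at counts too low to be tested. Rhox11 had 4 counts and Rhox12 had 2.

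Besides Rhox5, few members differed between genotypes within a treatment. With DMSO, Rhox2a and Rhox2b had no count and could not be called lower. Of the 6 members that reached the filter in DMSO libraries alone, 3 were lower in KO22 than in WT (28.5% of all genes were lower). These were Rhox5, Rhox6 (log2 fold change -1.09 ± 0.47, adjusted p = 0.0458, edgeR) and Rhox9 (-1.42 ± 0.51, adjusted p = 0.0146). Rhox6 lost its call with DESeq2 (adjusted p = 0.125), RLE factors (0.0511), no filter on low counts (0.101), a GC content offset (0.0579) and just these 2 groups fitted (0.0783). It also lost it without any 1 of the 4 libraries compared (0.0897 to 0.167) and without any 1 of 3 GSK-3484862 libraries (0.0502 to 0.0517). Rhox9 lost its call with DESeq2 (0.0552) and without KO22 DMSO replicate 1 (0.0690), KO22 DMSO replicate 2 (0.0571) or WT DMSO replicate 1 (0.0663). In N22 with DMSO, Rhox5 alone of the same 6 members was lower than in WT (13.9% of all genes). Rhox2-ps had 1 count in N22 against 16 in WT (ratio 0.0645, exact 95% interval 0.00154 to 0.415). No call is read from its test.

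With GSK-3484862, 1 of the 6 members that reached the filter in DMSO libraries alone was lower in KO22 than in WT (10.1% of all genes). It was Rhox9 (log2 fold change -0.95 ± 0.34, adjusted p = 0.0364, edgeR). This call was lost with DESeq2 (adjusted p = 0.186) and without KO22 GSK-3484862 replicate 2 (-0.55, 0.410), WT GSK-3484862 replicate 1 (0.103) or replicate 2 (0.138). In N22, Rhox5 was the 1 lower member of the same 6 (4.6% of all genes). With 1 call each, neither count is read as a result about the members as a set. For Rhox13 the difference with GSK-3484862 was -0.15 ± 0.19 in KO22 and 0.03 ± 0.19 in N22 against WT, and for Rhox1 0.16 ± 0.24 and 0.17 ± 0.24.

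In the untreated set, no Rhox gene was called in any comparison, and the clones of 1 genotype differed widely. Rhox5 had 285, 149, 106 and 207 counts in Dux n=1 clones 17, 22, 31 and 40, 750, 119 and 272 counts in Dux-KO clones 15, 22 and 52, and 160, 189 and 218 counts in the E14 libraries. Scaled to the library total, Dux-KO clone 15 was the highest of 10 libraries and the one labelled Dux-KO clone 22 the lowest. All 3 groups overlapped. The group means were 10.6 ± 4.72 CPM in Dux n=1 (SD, n = 4), 20.1 ± 16.7 CPM in Dux-KO (n = 3) and 10.6 ± 1.43 CPM in E14 (n = 3). For Dux-KO against E14 the log2 fold change was 0.86 ± 0.52 (adjusted p = 0.264, edgeR). With clone 15 left out it was 0.0016, and with the library labelled Dux-KO clone 22 left out it was 1.27 and passed the threshold (adjusted p = 0.0495). For Dux n=1 against E14 it was -0.02 ± 0.49 (adjusted p = 0.986).

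Enough counts for this test were found in 5 members, Rhox1, Rhox5, Rhox6, Rhox9 and Rhox13. Of these, 0 of 5 passed for Dux-KO against E14, where 20.4% of 14796 genes did, and none had an unadjusted p below 0.05. For Dux n=1 against E14, 0 of 5 passed beside 9.16% of all genes, and 1, Rhox13, had an unadjusted p below 0.05. For Dux n=1 against Dux-KO, 0 of 5 passed with edgeR and with DESeq2, as did 0 of all genes with edgeR (0%), of which 856 had an unadjusted p below 0.05. DESeq2 called no member for Dux-KO against E14 and 1, Rhox13, for Dux n=1 against E14.

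Rhox13 had 36, 26, 23 and 26 counts in Dux n=1 clones 17, 22, 31 and 40, against 61, 47 and 57 in E14. Every Dux n=1 clone was below every E14 library, while the Dux-KO clones, with 68, 36 and 27 counts, spanned both. The log2 fold change of Dux n=1 against E14 was -0.99 ± 0.33 (adjusted p = 0.0768, edgeR). It passed with DESeq2 (adjusted p = 0.0339), with just these 2 groups fitted (0.0414) and without Dux-KO clone 15 (0.0361). Dux n=1 against Dux-KO gave -0.53 ± 0.33 (adjusted p = 0.869). Rhox10 was too low to be tested, with 7, 3, 6 and 8 counts in the Dux n=1 clones, 24, 7 and 8 in the Dux-KO clones and 6, 4 and 4 in E14, and its highest value was again in Dux-KO clone 15.

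The summed level of the untreated cluster was 377, 247, 155 and 266 counts in the Dux n=1 clones, 897, 214 and 330 in the Dux-KO clones and 267, 274 and 301 in E14. The mean was 14.8 ± 5.58 CPM in Dux n=1 and 25.4 ± 18.5 CPM in Dux-KO, against 15.7 ± 0.685 CPM in E14. Without Dux-KO clone 15 the Dux-KO mean was 15.0 CPM.

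Within 500 kb of the cluster or inside it lie 45 other genes, 10 of them between the outermost Rhox genes. Of 18 outside genes tested in the treated set, 16 reached the filter in DMSO libraries alone. Of these 16, 4 were higher and 1 lower with GSK-3484862 in KO22, 4 higher and 0 lower in N22, and 5 higher and 3 lower in WT. Among all 15390 such genes, 23.4% were higher and 22.9% lower in KO22, 24.7% and 28.1% in N22, and 26.5% and 30.4% in WT. The median log2 fold change of the 16 was 0.12 in KO22, 0.13 in N22 and 0.02 in WT. The gene next to Rhox1, Gm9 (ENSMUSG00000073243), had 12 and 11 counts in KO22 with GSK-3484862, 15 and 8 in N22 and 30 and 20 in WT, against 0 in the KO22 and N22 libraries with DMSO and 1 and 0 in WT with DMSO. It reached the filter only through the GSK-3484862 libraries, so no call is read from its test. Inside the cluster, Zbtb33, which encodes the methyl-CpG binding protein Kaiso, rose by 0.64 ± 0.10 in KO22, 0.58 ± 0.10 in N22 and 0.72 ± 0.11 in WT (log2, adjusted p at most 2.84e-06). Untreated, Zbtb33 was lower in Dux n=1 (log2 fold change -0.79 ± 0.14, adjusted p = 0.0113, edgeR) and in Dux-KO (-1.03 ± 0.15, adjusted p = 0.00257) than in E14. Zbtb33 had 198, 230 and 179 counts in Dux-KO clones 15, 22 and 52, against 372 to 397 in E14. A part of Zbtb33 in the Rhox levels was not tested. Lower values were not particular to Zbtb33: of 16 outside neighbours tested, 5 were lower and 0 higher in Dux n=1, and 6 lower and 0 higher in Dux-KO, with median log2 fold changes of -0.33 and -0.47. Over all 14796 tested genes, 9.16% were called in either direction in Dux n=1 and 20.4% in Dux-KO, and the share called lower was not computed.

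Germline genes known to be held silent by DNA methylation also rose with GSK-3484862. Of 21 tested genes of a fixed list, 19 reached the filter in DMSO libraries alone, and of these 12 rose and 1 fell in KO22, 13 rose and 3 fell in N22, and 12 rose and 3 fell in WT. Their median log2 fold change was 0.87 in KO22, 0.71 in N22 and 0.81 in WT. An example is Fkbp6, a meiosis gene, with a log2 fold change of 5.87 ± 0.14 in KO22, 4.93 ± 0.13 in N22 and 4.68 ± 0.12 in WT. Of 16 tested X-linked testis and placenta genes outside the cluster, only 5 reached the filter in DMSO libraries alone, of which 4 rose and 0 fell in KO22, 3 rose and 1 fell in N22, and 3 rose and 1 fell in WT. Among all 15390 such genes, 23.4% rose and 22.9% fell in KO22, 24.7% and 28.1% in N22, and 26.5% and 30.4% in WT. Of 20 genes of the DNA methylation machinery, 5 rose and 11 fell in KO22, 3 and 13 in N22, and 5 and 10 in WT, which is 25%, 15% and 25% rising and 55%, 65% and 50% falling. Dnmt1 mRNA, which does not show the protein that the compound degrades, changed by -0.05 ± 0.03 in KO22 (adjusted p = 0.178, edgeR), -0.26 ± 0.03 in N22 (8.14e-11) and -0.32 ± 0.03 in WT (7.69e-14).

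Of 8 factors reported at Rhox5 promoters, 7 reached the filter in DMSO libraries alone. Of these 7 none rose, and 2 fell in KO22, 3 in N22 and 5 in WT (28.6%, 42.9% and 71.4% of the 7). Among all 15390 such genes, 23.4% rose and 22.9% fell in KO22, 24.7% and 28.1% in N22, and 26.5% and 30.4% in WT. Ets2, which encodes an ETS family factor, fell in all 3, with a log2 fold change of -0.78 ± 0.09 in KO22, -0.51 ± 0.10 in N22 and -0.33 ± 0.09 in WT (adjusted p at most 0.00161, edgeR). Gabpa, which encodes another ETS family factor, also fell, with -0.22 ± 0.05 in KO22, -0.27 ± 0.05 in N22 and -0.25 ± 0.05 in WT (adjusted p at most 0.000117). Of 7 genes reported to be regulated by RHOX5 in Sertoli cells, 2 had enough counts. Adipor2 fell, with -0.26 ± 0.04 in KO22, -0.42 ± 0.04 in N22 and -0.47 ± 0.04 in WT. Adipoq had a log2 fold change of -0.80 ± 0.64 in KO22 (adjusted p = 0.322, edgeR) and 0.89 ± 0.88 in N22 (0.412), and rose in WT (3.04 ± 1.26, 0.0343).

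Several sums of cell state markers differed between the treatments, and not all moved the same way in each genotype. The summed CPM of the 9 pluripotency markers was 4720 to 4742 in KO22 with GSK-3484862, against 6010 to 6134 with DMSO, 4744 to 4813 against 5971 to 5999 in N22, and 4725 to 4762 against 6294 to 6390 in WT. The 11 primitive endoderm markers summed to 619 to 631 CPM in KO22 against 542 to 548, 528 to 543 against 354 to 358 in N22, and 559 to 565 against 349 to 353 in WT. Of these, 9 reached the filter in DMSO libraries alone, with 4 higher and 2 lower in KO22, 4 and 1 in N22, and 6 and 1 in WT. The 10 trophoblast markers summed to 74.1 to 76.8 CPM in KO22 against 38.2 to 38.7, 113 to 114 against 81.2 to 82.3 in N22, and 102 to 116 against 106 to 109 in WT. Of the 6 trophoblast markers that reached the filter in DMSO libraries alone, 5 were higher in KO22, 4 higher and 1 lower in N22, and 3 higher in WT. The shares of all 15390 such genes were 23.4% higher and 22.9% lower in KO22, 24.7% and 28.1% in N22, and 26.5% and 30.4% in WT. The 7 Sertoli cell markers summed to 12.2 to 13.8 CPM in KO22 against 7.84 to 8.07, 9.48 to 10.3 against 13.2 to 13.6 in N22, and 10.3 to 11.6 against 7.05 to 8.97 in WT. The 6 primordial germ cell markers summed to 98.9 to 103 CPM in KO22 against 69.4 to 70.2, 160 to 162 against 131 to 133 in N22, and 147 to 155 against 158 to 160 in WT. Of these 6, 3 were higher and 1 lower in KO22, 3 and 2 in N22, and 2 and 2 in WT. The 6 markers of the 2-cell state summed to at most 0.157 CPM in KO22 with GSK-3484862 and to 0 with DMSO, 21.4 to 22.1 against 1.53 to 2.27 in N22, and 49.9 to 52.5 against 3.99 to 5.20 in WT. The part of these marker lists in the Rhox levels was not tested.

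Rhox5 was compared with the 13798 genes of mean CPM of at least 1 over the 12 treated libraries. By Pearson's r of log2(CPM + 1), the genes most like it were Rpn1 (0.99), Rian (0.98), Meg3 (0.98), Cdkn2a (0.98) and Ripor1 (0.98). Over the 10 untreated libraries and 13077 genes they were Ets2 (0.94), Rwdd1 (0.93), Dus4l (0.92), Chst14 (0.92) and Cdkn2a (0.92). These values describe libraries that share treatments and clones. Cdkn2a, which encodes the cell cycle inhibitors of the Ink4a/Arf locus, was in both sets.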

How the data were processed

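The authors deposited raw counts, 1 table a library for 22 libraries, with no normalization: per the file headers, each value is a count of fragments on the exons of a gene in Ensembl release 84. The same headers record paired reads in 22 of 22 tables, and neither multi-mapping reads nor strand in any (0 of 22). Per the submitters' processing notes, the tools were fastp 0.23.2, HISAT2 2.1.0, featureCounts 2.0.1 and DESeq2 1.40.2, and the build GRCm38. Fragments that fit several near-identical copies are therefore missing, and overlapping or antisense genes cannot be told apart. Symbols were taken from GENCODE M21, in which 47310 of the 47729 identifiers were found, and every table row named a gene.

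Sample titles gave the groups and clone numbers. They name no culture or batch, so p-values reflect the spread between these samples alone, which may be technical. The treated set (12 libraries) and the untreated set (10) were fitted separately, all groups of a set together and with no block, by the robust quasi-likelihood test of edgeR 4.0.16 (R 4.3.3) after TMM scaling and filterByExpr (minimum count 10). Adjusted p-values are Benjamini-Hochberg over all tested genes. The sets were not compared with each other, and the fits were checked on simulated counts with known changes. CPM are counts scaled to the library total, and RPKM divides these by the exon length in kb. The floor for a group without counts was 3 counts over the group, and intervals of pooled ratios are exact 95% intervals. Both cover counting error only. Folds given as at least a value take the count of the other group as observed, so they are not limits of a 95% interval. No pair of libraries of a group was as alike as sampling noise alone would make it (chi-square over its degrees of freedom 2.61 to 53.5). Coding identities and unique 50- and 100-base stretches were computed from the GENCODE M21 transcripts with Biopython 1.88. Promoter windows are those of RefSeq.

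The naming rule covered all Rhox genes, tested genes within 500 kb, up to 5 members of each gene list with the smallest p in WT, and the 5 genes most like Rhox5. Gm9, Zbtb33 and the examples of the lists were picked among these after their values were seen. The members and the gene lists were chosen with earlier results of these data known. Alternatives were RLE factors, DESeq2 1.42.0, no low-count filter, a fit of the compared groups alone, a replicate block, each library left out in turn, sums without Rhox5 or without the copies, TMM scaling of the sums, and a GC content offset chosen after seeing the data.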

Additional observations from a re-analysis of the deposited data

Results flagged for a closer look

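Rhox5 responded more to GSK-3484862 in both edited lines than in WT, by 1.17 log2 units in KO22 and by 1.29 in N22, each tested as a difference between responses in edgeR (adjusted p = 2.19e-12 and 1.01e-11). Leaving out any 1 library kept the difference between 1.05 and 1.27 for KO22 and between 1.16 and 1.41 for N22.

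In the untreated set, the group of 4 Dux n=1 clones was searched for a library far from the other 3 in 7 values. Rhox13 was higher in clone 17, at 2.18 CPM, than in the other 3 clones, and Rhox10 was lower in clone 22, at 0.158 CPM. Chance gives such a gap in about 1 group of 20. The Rhox10 value rests on 3 counts.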

How the results depend on the processing

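Each comparison was recomputed under the alternatives. Counts of called members below cover all tested members. For N22 against WT in DMSO the 2 include Rhox2-ps, from whose test no call is read. Counts of called members that moved by over 1.5 times were those of Dux n=1 against E14 (1 with DESeq2 and with only the compared groups, against 0), KO22 against WT in DMSO (1 with DESeq2, against 3), N22 against WT in DMSO (1 with DESeq2 and with only the compared groups, against 2) and KO22 against WT with GSK-3484862 (0 with DESeq2, against 1). Leaving out 1 library, the log2 fold change with GSK-3484862 stayed above 0 for the 6 members that reached the filter in DMSO libraries alone. For Rhox5 it was 2.44 to 2.66 in KO22, 2.56 to 2.80 in N22 and 1.33 to 1.45 in WT. The lowest value of the 6 members was 0.96, for Rhox9 in N22. In the untreated set, leaving out 1 library gave 0 to 1 called members for Dux n=1 and for Dux-KO against E14. Dux n=1 against Dux-KO gave 0 throughout.

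The summed level without Rhox5 was 20.2 CPM in KO22, 25.3 in N22 and 24.1 in WT with GSK-3484862, against 2.84, 4.80 and 5.41 with DMSO, and 4.22 in Dux n=1, 5.29 in Dux-KO and 5.13 in E14. Without the copies it was 63.6 in N22 and 82.8 in WT with GSK-3484862, and TMM scaling gave 84.1 in WT. Leaving out 1 library gave sums of 73.9 to 87.0 in KO22, 66.4 to 69.2 in N22 and 85.9 to 86.7 in WT with GSK-3484862, 12.9 to 13.1, 11.1 to 11.4 and 26.6 to 29.7 with DMSO, and 12.2 to 16.5 in Dux n=1, 15.0 to 32.5 in Dux-KO and 15.3 to 16.0 in E14.

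Among the fitted values of Rhox members given here, the direction reversed only when 1 library was left out, in values that were not called in any alternative. For genes outside the cluster the alternatives were not compared. These were Rhox1 (-0.22 to 0.087, log2) and Rhox5 (-0.36 to 0.14) for Dux n=1 against E14, and Rhox9 for N22 against WT in DMSO (-0.29 to 0.55). With GSK-3484862 against WT they were Rhox1 (-0.048 to 0.33) and Rhox5 (-0.13 to 0.090) for KO22, and Rhox1 (-0.051 to 0.37) and Rhox13 (-0.034 to 0.10) for N22. Among the response differences they were Rhox9 (-0.080 to 0.87) and Rhox13 (-0.16 to 0.74) for KO22 minus WT, and Rhox9 (-0.45 to 0.39) and Rhox13 (-0.56 to 0.34) for N22 minus WT. The cause was not tested.

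Replicate numbers are shared by the 6 treated groups but did not pair the libraries: the correlation of replicate differences over the 15 pairs of groups was -0.0168 to 0.0294. With the replicate block, no call was lost among the 6 members that reached the filter in DMSO libraries alone. Few counts limit the Rhox3 and Rhox4 copies, Rhox7a, Rhox7b, Rhox11 and Rhox12, and the copies have also lost the fragments they share.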
